A study of Mus musculus with 4 samples.

Results

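Pairs of DNA ends from the TGFB1+miR-9-LOF library were compared with those from the TGFB1 library in H3K4me3 HiChIP-seq of MLg cells, a mouse lung fibroblast line. These were 2 of the 4 libraries of the experiment, chosen by their labels as the pair that differed by the loss of miR-9 (LOF, loss-of-function) while TGFB1 was present. Harvest was 24 h after transfection with antagomiR at 60 nM, and both cultures had 5 ng/ml TGFB1 for the last 4 h, from 20 h after transfection. The TGFB1+miR-9-LOF cells received a miR-9-specific antagomiR. The methods of the study describe a negative control antagomiR in the other cells, whereas the labels name none for the TGFB1 and Ctrl libraries. The Ctrl library (no TGFB1) and the miR-9-LOF library (miR-9-specific antagomiR, no TGFB1) served as a further pair that shares no library with the one compared. Each condition had 1 library, and conditions were therefore compared without a test. The intervals given cover counting error only, and the effect of the antagomiR cannot be told apart from the difference between 1 culture and another. The libraries hold no measurement of miR-9 itself, so the loss of miR-9 was not checked here.

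HiChIP joins DNA ends that lay close together in the nucleus and then enriches, with an antibody, the joined fragments that carry a histone mark. H3K4me3, histone H3 with a trimethylated lysine 4, marks the nucleosomes around the start sites of active and poised genes, above all those with CpG-rich promoters. TGFB1 is the main fibrogenic cytokine of the lung: it binds a complex of type I and type II receptors, SMAD2 and SMAD3 are phosphorylated and enter the nucleus with SMAD4, and fibroblasts become contractile and deposit matrix. miR-9 is a microRNA best known for its action on transcripts in the nervous system, and the study describes it also in the nucleus of lung fibroblasts.

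The mature miR-9-5p is encoded at 3 places in the mouse genome with the same sequence (RefSeq, GRCm38). They are Mir9-1 at chr3:88215613-88215635, Mir9-2 at chr13:83738821-83738843 and Mir9-3 at chr7:79505279-79505301. The sequence is shown because it is the molecule that the antagomiR was designed against, and capitals mark its seed, bases 2 to 8.
miR-9-5p: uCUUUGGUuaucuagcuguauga

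Promoter windows of 4 genes are shown next, since they contrast promoters that differed between the libraries with 1 that differed little: a CpG-dense one that had far fewer ends in TGFB1+miR-9-LOF (Hnrnpa3), a CpG-dense one whose level relative to the median promoter was the same in both libraries (Parp12), and 2 CpG-poor ones, of which Acta2 was lower and Ifit1 higher. Each is the RefSeq window from 250 bases before to 50 bases after the start on GRCm38, read along the gene, and capitals mark the CG dinucleotides. Hnrnpa3 lies at chr2:75659009-75659308 (plus strand, 44 CpG), Parp12 at chr6:39118300-39118599 (minus strand, 46 CpG), Acta2 at chr19:34255324-34255623 (minus strand, 6 CpG) and Ifit1 at chr19:34640639-34640938 (plus strand, 4 CpG).
Hnrnpa3: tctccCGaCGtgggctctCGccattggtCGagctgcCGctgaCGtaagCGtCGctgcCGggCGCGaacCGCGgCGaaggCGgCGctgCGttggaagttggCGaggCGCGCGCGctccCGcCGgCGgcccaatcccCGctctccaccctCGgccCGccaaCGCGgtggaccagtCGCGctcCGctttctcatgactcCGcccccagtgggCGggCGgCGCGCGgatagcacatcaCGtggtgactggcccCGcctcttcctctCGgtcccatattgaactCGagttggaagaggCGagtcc
Parp12: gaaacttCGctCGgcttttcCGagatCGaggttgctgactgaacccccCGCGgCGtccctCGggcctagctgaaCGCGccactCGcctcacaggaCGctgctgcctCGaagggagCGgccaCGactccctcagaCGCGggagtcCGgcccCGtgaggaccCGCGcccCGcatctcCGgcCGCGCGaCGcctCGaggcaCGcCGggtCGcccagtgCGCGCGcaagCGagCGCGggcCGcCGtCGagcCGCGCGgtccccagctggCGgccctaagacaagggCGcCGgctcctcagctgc
Acta2: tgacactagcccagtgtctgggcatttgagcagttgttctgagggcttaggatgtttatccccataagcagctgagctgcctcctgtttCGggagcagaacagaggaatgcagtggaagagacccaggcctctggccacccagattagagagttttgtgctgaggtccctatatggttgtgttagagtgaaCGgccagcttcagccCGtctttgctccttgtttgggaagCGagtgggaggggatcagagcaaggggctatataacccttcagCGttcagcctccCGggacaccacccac
Ifit1: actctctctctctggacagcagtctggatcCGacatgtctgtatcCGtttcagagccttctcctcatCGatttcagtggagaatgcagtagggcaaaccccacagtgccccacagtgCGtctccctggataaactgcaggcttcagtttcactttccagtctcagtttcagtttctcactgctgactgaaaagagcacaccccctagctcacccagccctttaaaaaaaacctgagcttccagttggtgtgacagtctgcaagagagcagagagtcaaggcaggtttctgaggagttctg

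The lists held 10864558 valid pairs in TGFB1 and 14121095 in the TGFB1+miR-9-LOF library, with 15359978 in Ctrl and 15568047 in miR-9-LOF. On autosomes and with both ends mapped at a quality of 30 or more, 9349493 pairs in TGFB1 and 12058489 in the TGFB1+miR-9-LOF library remained. The signal of a promoter was the number of pair ends within 2 kb on either side of the annotated start of a coding gene, its transcription start site (TSS). Its level was this number divided by the median over the 20780 autosomal coding promoters of the same library. That median was 64 ends in TGFB1 and 74 in the TGFB1+miR-9-LOF library. Of the 20780 promoters, 17018 had at least 50 ends summed over both libraries and were measured, and 3762 were under this minimum. Windows of 3497 promoters overlapped that of another coding gene, and such neighbours share ends.

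The libraries differed in how much of their signal lay at promoters, and each result below stands beside this difference. The share of ends within 2 kb of a coding TSS was 14.1% in Ctrl, 11% in TGFB1, 7.71% in the TGFB1+miR-9-LOF library and 8.54% in miR-9-LOF. Pairs with both ends at promoters made up 2.47% in TGFB1 and 1.26% in the TGFB1+miR-9-LOF library. The share of ends at promoters was thus lower in TGFB1+miR-9-LOF than in TGFB1, and in miR-9-LOF than in Ctrl, by more than the counting error (95% Wilson interval 7.70% to 7.72% in TGFB1+miR-9-LOF). A lower yield of the precipitation in 1 library and less H3K4me3 at promoters cannot be told apart.

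**Figure D1:**
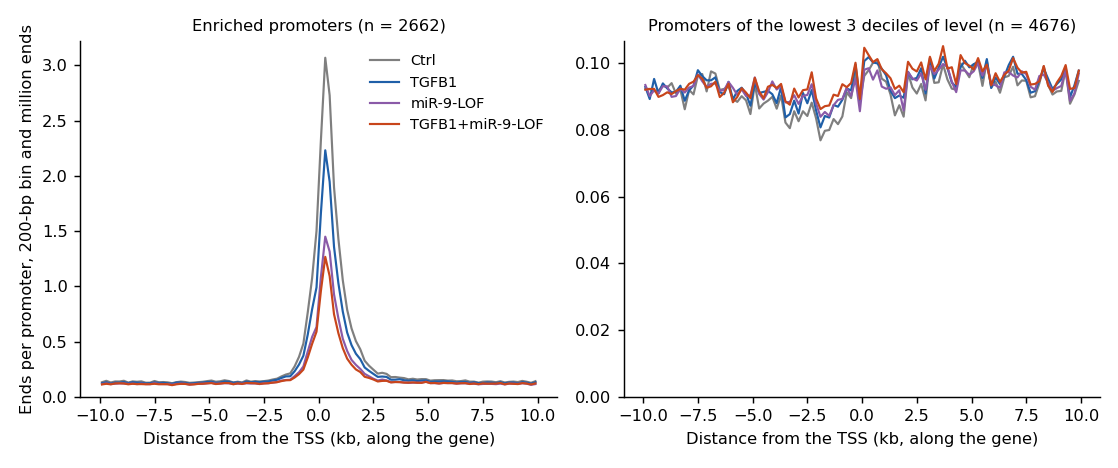
Ends per promoter, 200-bp bin and 1000000 ends of the library (vertical axis) by the distance from the TSS in kb along the gene, for the 2662 enriched promoters (left) and the 4676 promoters of the lowest 3 deciles of level (right) whose windows overlap no other, with 1 line per library. At 0.3 kb after the TSS of enriched promoters the lines reach 3.07 in Ctrl, 2.23 in TGFB1, 1.45 in miR-9-LOF and 1.27 in TGFB1+miR-9-LOF, while on the right all 4 lie close together near 0.1.

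Promoters were counted as enriched where the density of ends, over the 4 libraries at equal depth, was at least 4 times that 10 to 50 kb away on either side. The flanks can hold ends at other promoters, so a promoter not counted as enriched can still have a peak. There were 3976 enriched promoters. In mean ends per 1000000 they had 20.8 in Ctrl, 15.2 in TGFB1, 9.07 in the TGFB1+miR-9-LOF library and 10.6 in miR-9-LOF, which is 8.52, 6.51, 4.06 and 4.77 times the density at their flanks. The peak was thus lowest in TGFB1+miR-9-LOF and second lowest in miR-9-LOF. Its flanks moved little, from 2.34 expected ends per 1000000 in TGFB1 to 2.24 in TGFB1+miR-9-LOF. Of the excess over the flanks in TGFB1, 53.0% (95% counting interval 52.8% to 53.2%) was found in TGFB1+miR-9-LOF. Of the excess in Ctrl, 45.5% (45.4% to 45.7%) was found in miR-9-LOF.

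Relative to the median promoter, most enriched promoters were lower in TGFB1+miR-9-LOF, while the ratios of the others lay on both sides of 0. With a log2 ratio of at most -0.5 taken as lower and of at least 0.5 as higher, 4729 of the 17018 promoters were lower (27.8%) and 1336 were higher (7.85%). The median log2 ratio over all of them was -0.25. Among the 3976 enriched promoters 2630 were lower and 5 were higher, with a median of -0.57, and 99.45% of them had a ratio below 0. Among the 13042 others 2099 were lower and 1331 higher, with a median of -0.07. Per 1000000 ends of the library, without the median promoter as reference, every log2 ratio was lower by 0.16 (a shift of -0.158), and 7350 promoters were lower and 633 higher. Relative to promoters of like GC content 856 were lower and 3080 higher, and the median of enriched promoters was -0.28. This measure subtracts the median of promoters of like GC content, which sets the median over all promoters to 0. The change in balance cannot be told apart from this centring.

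The ratio followed the level of the promoter. In deciles of the 17018 promoters by their mean level over the 4 libraries, the median log2 ratio was 0.26 in the lowest decile and 0.21, 0.15, 0.08 and -0.06 in those that followed. In the upper deciles it went from -0.30 through -0.43, -0.48 and -0.53 to -0.62 in the highest. The lowest decile had a mean level of 0.412 times the median promoter, and the highest 6.14 times. Measured as the excess over the flanks, the share kept differed less between the upper deciles and was higher in those below. It was 96.4% (90.1% to 102.8%) in the fourth decile, where the excess was small, and 70.8% (68.6% to 73.0%) in the fifth. It was 58.1% (57.1% to 59.0%) in the sixth decile, 54.2%, 53.7% and 53.6% in the next ones and 52.0% (51.8% to 52.3%) in the highest. Each promoter was therefore also set against promoters of like level, by subtracting the median of its bin among 50 bins of mean level. By that measure 921 promoters were lower (5.41%) and 826 higher (4.85%). Subtracting bin medians sets the median over all promoters to 0, which by itself brings these counts closer together. The mean level includes both libraries compared, so this measure is not independent of the ratio.

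**Figure D2:**
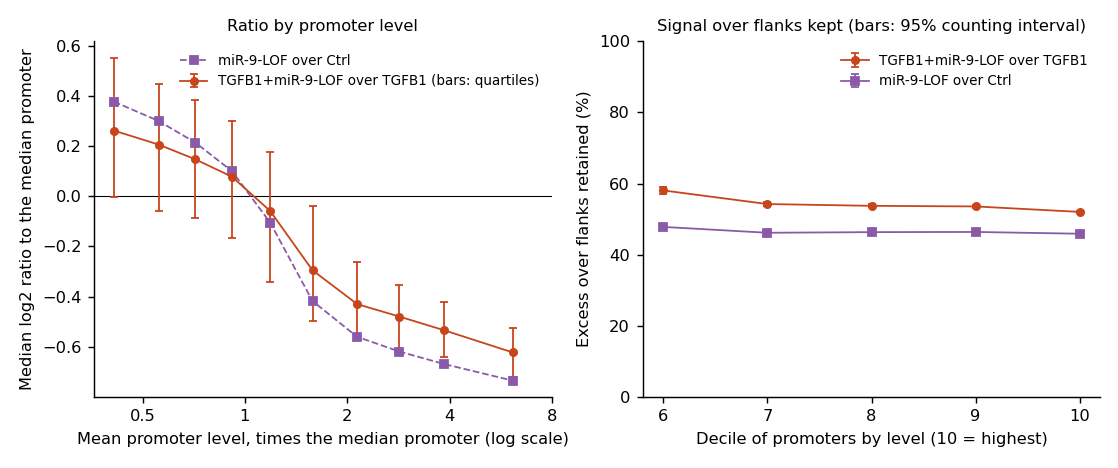
Left, median log2 ratio of the promoter level (vertical axis) by the mean level in times the median promoter (horizontal axis, log scale) for each decile of the 17018 promoters, with bars for the quartiles of TGFB1+miR-9-LOF over TGFB1. Right, the percentage of the excess over the flanks that was kept in the 6th to 10th decile, with 95% counting intervals. The ratio of TGFB1+miR-9-LOF over TGFB1 goes from 0.26 to -0.62 with level, while the excess kept stays between 52.0% and 58.1%.

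Promoters with CpG-rich windows had lower ratios than CpG-poor ones, but they also had higher levels, and the difference was small at like level and among the enriched promoters. RefSeq held a window for 12987 of the 17018 promoters, and 11280 of these began within 500 bp of the annotated start. In quintiles of these by CpG number, the median log2 ratio was 0.17 for 0 to 6 CpG, followed by -0.12, -0.40 and -0.44, and -0.47 for 29 to 65 CpG. From the first to the last of these the median level went from 0.69 to 2.48 times the median promoter, and the median ratio at like level from 0.07 to -0.03. Within the enriched promoters the medians of the 5 groups ranged from -0.52 to -0.59, and the 51 with the fewest CpG had -0.52, of which 52.9% were lower, against 68% of the 987 with the most. Hnrnpa3 and Parp12, with 44 and 46 CpG in the windows shown, had log2 ratios of -1.18 and 0.00. The complement of the miR-9-5p seed, ACCAAAG on either strand, occurred in 405 of the 11280 windows (3.59%). Their median relative to promoters of like level was -0.01, and that of the 10875 windows without it was 0.00. A G-quadruplex motif, 4 runs of at least 3 G or of at least 3 C with up to 7 bases between them, occurred in 25.25% of the windows, and their median relative to promoters of like level was also 0.00. These matches are letters in a window and not sites.

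Genes of the TGFB1 response had a share of lower members near that of enriched promoters. Of 33 measured early TGFB1 targets, among 35 listed, 24 were lower (72.73%, beside 27.8% of all promoters and 66.15% of enriched ones) and none was higher, and their median was -0.60. Relative to promoters of like level the median was -0.07, with 1 lower and 1 higher. Of the excess over the flanks they kept 51.1% (48.8% to 53.4%), beside 53.0% for enriched promoters in general.

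Id2, an inhibitor of helix-loop-helix factors, had the lowest ratio of the list, with 235 ends in Ctrl, 132 in TGFB1, 82 in the TGFB1+miR-9-LOF library and 89 in miR-9-LOF. Its log2 ratio was -0.90 (-1.31 to -0.48), and relative to promoters of like level it was still -0.59. Both libraries with the miR-9-specific antagomiR were the low ones. The related Id1 had 1089, 555, 368 and 409 ends in the same order of libraries and a log2 ratio of -0.80 (-1.01 to -0.59), or -0.11 at like level. Both promoters were thus lower in TGFB1+miR-9-LOF than in any other library. Junb (-0.79), Pmepa1 (-0.79), Snai2 (-0.72), Myc (-0.72) and Ccn2 (-0.58) were lower too.

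Smad7, whose product blocks the type I receptor, had a lower ratio in the pair without TGFB1. It had 870 ends in Ctrl, 424 in TGFB1, 340 in the TGFB1+miR-9-LOF library and 303 in miR-9-LOF. Its log2 ratio was -0.53 (-0.75 to -0.31) with TGFB1 present and -1.22 between miR-9-LOF and Ctrl. The 3 members with a ratio above 0 were Cdkn1a, a cell cycle inhibitor, at 0.28 (-0.13 to 0.69), Atf3 at 0.32 (-0.25 to 0.88) and the cytokine gene Il11 at 0.38 (-0.09 to 0.85). All of these intervals include 0. Il11 had 107, 63, 95 and 100 ends, Cdkn1a 168, 89, 125 and 95, and Atf3 49, 43, 62 and 62, so these are promoters with few ends.

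Of the 35 genes of the SMAD pathway 18 were lower (51.43%, beside 27.8% of all and 66.15% of enriched promoters) and 1 was higher, with a median of -0.51. At the receptors, the type II receptor gene Tgfbr2 had 837 ends in Ctrl, 463 in TGFB1, 318 in the TGFB1+miR-9-LOF library and 399 in miR-9-LOF, and a log2 ratio of -0.75 (-0.97 to -0.53). For the type I receptor gene Tgfbr1 the window at the annotated start held 73, 29, 33 and 40 ends, near or below the median promoter, and the ratio was -0.02 (-0.74 to 0.70). The lowest ratio was that of Ltbp2 (-0.88), which encodes a latent TGFB binding protein. Among the mediators, Smad3 was at -0.69 (-0.94 to -0.45), while Smad2 had a ratio of 0.04 (-0.49 to 0.57) and Smad4 of -0.24 (-0.81 to 0.34) in windows with few ends. The ligand genes Tgfb1, Tgfb2 and Tgfb3 had ratios of -0.45, -0.68 and -0.49. Tgif2, a SMAD corepressor, was the only higher member (0.57, -0.03 to 1.17), from 39 ends in TGFB1 and 67 in the TGFB1+miR-9-LOF library.

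Contractile genes, which mark the myofibroblast, had 22 of 36 members lower and none higher, with a median of -0.56. That share, 61.11%, is near the 66.15% of enriched promoters and above the 27.8% of all promoters, of which 7.85% were higher. Of the 36 members 15 were enriched. At like level the median was -0.10, with 1 lower and none higher, beside 5.41% and 4.85% of all promoters. Srf, the factor that drives many of them, was lowest, at -0.88 (-1.15 to -0.62). Acta2, smooth muscle actin, had 333 ends in Ctrl, 194 in TGFB1, 146 in the TGFB1+miR-9-LOF library and 177 in miR-9-LOF, and a ratio of -0.62 (-0.94 to -0.30). Its window is the CpG-poor one shown above, and its ratio is close to the median of enriched promoters. Tagln was at -0.63 (-1.05 to -0.21), from 111 to 83 ends. The highest ratio was that of Actg2, 0.28 (-0.18 to 0.74).

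The 40 measured collagen genes of 42 had a median of -0.05, with 9 lower (22.5%) and 2 higher (5%), near the 27.8% and 7.85% of all promoters, and 6 of the 40 were enriched. Col11a1 was lowest (-0.73, -1.13 to -0.32), and Col1a1, the main chain of type I collagen, had 567, 303, 243 and 312 ends in Ctrl, TGFB1, TGFB1+miR-9-LOF and then miR-9-LOF, and a ratio of -0.53 (-0.78 to -0.28). Col3a1, whose window held 39 and 42 ends in the libraries compared, was at -0.10 (-0.73 to 0.53). Col6a6 had the highest ratio, 1.32 (0.54 to 2.10), from 18 ends in TGFB1 and 52 in the TGFB1+miR-9-LOF library, against 34 in Ctrl and 27 in miR-9-LOF. Of 42 measured genes of matrix glycoproteins and crosslinkers among 46, 14 were lower (33.33%) and 1 was higher (2.38%). Over all promoters these shares were 27.8% and 7.85%. The median of the class was -0.41, and -0.04 at like level. Eln, the gene of elastin, was the higher one: it had 123 ends in Ctrl, 68 in TGFB1, 119 in the TGFB1+miR-9-LOF library and 103 in miR-9-LOF, and a ratio of 0.60 (0.16 to 1.04). Its level was thus lower in TGFB1 than in the other 3 libraries. Fn1, fibronectin, was at 0.02 (-0.40 to 0.44), and the crosslinking enzyme gene Lox at -0.65 (-0.96 to -0.33).

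Transcription factor genes of the lung mesenchyme included some of the lowest ratios. Of 32 measured among 36, 14 were lower (43.75%) and 1 was higher (Gli1, 0.52), with a median of -0.48. For this and the other factor and receptor classes below, 27.8% of all promoters and 66.15% of enriched ones were lower. Foxf2, a forkhead factor of the mesenchyme, had 510 ends in Ctrl, 352 in TGFB1, 188 in the TGFB1+miR-9-LOF library and 260 in miR-9-LOF, and a ratio of -1.11 (-1.38 to -0.85). Its paralog Foxf1 had 692, 388, 227 and 339 ends and a ratio of -0.98 (-1.23 to -0.73). At like level Foxf2 was at -0.57, and at 0.01 in the pair without TGFB1, and Foxf1 was at -0.39. Zeb1, a factor of mesenchymal transition, was at -0.97 (-1.33 to -0.61), whereas the related Zeb2 was at -0.12 (-0.58 to 0.34). Of 25 immediate early and growth response factors 16 were lower (64%) and none higher, with a median of -0.62, from Cited2 at -0.91 (-1.12 to -0.70) to Egr4 at 0.38 (-0.26 to 1.01). Of 14 AP-1 factors 7 were lower (50%), with a median of -0.48, from Junb at -0.79 to Atf3 at 0.32. Hox genes, of which none of the 38 measured was enriched, had a median of -0.09 with 7 lower (18.42%) and 1 higher, from Hoxa4 at -0.70 (-0.93 to -0.46) to Hoxa11 at 0.50 (0.00 to 1.00). YAP and TEAD genes with their targets had a median of -0.57, with 13 of 20 lower (65%), from Amotl2 at -0.82 to Amotl1 at 0.32. Growth factor receptor genes had a median of -0.48, with 9 of 19 lower (47.37%), from Egfr at -0.88 (-1.12 to -0.65) to Kit at 0.44 (-0.09 to 0.97).

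Genes that every cell uses had larger shares of lower members than the 27.8% of all promoters, and smaller ones than the 66.15% of enriched promoters. Of 73 genes of cytosolic ribosomal proteins 42 were lower and none higher (median -0.55), and of 65 splicing factors 40 were lower and none higher (-0.55). Of 51 genes of the cell cycle and DNA replication 26 were lower and 1 was higher (-0.52). Medians were -0.50 for 41 proteasome genes, -0.49 for 51 translation factors, -0.47 for 75 mitochondrial ribosomal proteins and -0.44 for 78 genes of oxidative phosphorylation. These medians lie between that of all promoters and that of enriched promoters, and at like level they were near 0, with -0.07 for cytosolic ribosomal proteins, -0.06 for splicing factors, -0.04 for the cell cycle and -0.02 for oxidative phosphorylation. Lower members made up 46.67% of mitochondrial ribosomal proteins, 46.15% of oxidative phosphorylation and 49.02% of translation factors. The excess kept was 49.3% (47.3% to 51.3%) for cytosolic ribosomal proteins and 49.8% (48.1% to 51.5%) for splicing factors, beside 53.1% (51.1% to 55.1%) for mitochondrial ribosomal proteins. The highest member of the first class was Rps10 at 0.42 (-0.36 to 1.19). Bub1, a kinase of the mitotic checkpoint, was the higher gene of the cell cycle list (0.82, 0.15 to 1.48), from 27 ends in TGFB1 and 55 in the TGFB1+miR-9-LOF library, and Aurka the lowest (-0.93, -1.13 to -0.72).

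Replication-dependent histone genes, whose short transcripts are made in S phase, stood below promoters of like level. The 46 measured of 67 had a median of -0.28 relative to the median promoter, with 9 lower (19.57%, beside 27.8% of all promoters) and 2 higher. Relative to promoters of like level the median was also -0.28, with 13 lower and none higher, where 5.41% of all promoters were lower and 4.85% higher. In miR-9-LOF over Ctrl the like-level median was -0.39. With TGFB1 present no other class had a like-level median below -0.10, whereas in the pair without it others did, with -0.17 for immediate early and growth response factors and -0.15 for early TGFB1 targets. Hist1h4h was lowest at -0.79 (-1.22 to -0.37), with 238, 123, 82 and 127 ends in Ctrl, TGFB1, TGFB1+miR-9-LOF and then miR-9-LOF. Hist1h2ba, a histone gene of the testis, was highest at 0.72 (-0.08 to 1.51), with 20 ends in TGFB1 and 38 in the TGFB1+miR-9-LOF library. Histone genes have near-identical copies, and how this bears on their counts was not tested.

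Interferon-stimulated genes and genes of chemokines and cytokines had the largest shares of kept excess among the classes for which it was computed, which leaves out 9 classes of low median level. The 25 measured interferon-stimulated genes of 27 had a median of 0.00, with 2 lower (8%, beside 27.8% of all promoters) and 5 higher (20%, beside 7.85%). Of their excess over the flanks 69.7% (61.0% to 78.4%) was found in TGFB1+miR-9-LOF. Relative to promoters of like level their median was 0.16, with none lower and 5 higher (4.85% of all promoters were). The 22 measured genes of chemokines and cytokines of 24 had a median of 0.02, with 2 lower (9.09%) and 1 higher (4.55%). Their like-level median was 0.20, and 74.5% (61.0% to 88.0%) of their excess was kept. Both intervals lie above the 53.0% of enriched promoters, but promoters of low level kept more in general. The median level of the interferon-stimulated genes, 1.27 times the median promoter, lies in the fifth decile, which kept 70.8%, and that of chemokines and cytokines, 1.47 times, in the sixth, which kept 58.1%. The interval of the interferon-stimulated genes includes the value of that decile. In miR-9-LOF over Ctrl the shares kept were 53.2% and 42%, beside 45.5% for enriched promoters. The lists share genes: Cxcl10 stands in both, and Il11 and Lif also among the early TGFB1 targets.

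Among the interferon-stimulated genes, promoters with low levels were those that were higher. Ifit1, an antiviral RNA-binding protein, had 101 ends in Ctrl, 54 in TGFB1, 109 in the TGFB1+miR-9-LOF library and 133 in miR-9-LOF. Its log2 ratio was 0.80 (0.33 to 1.28) and was 0.70 in miR-9-LOF over Ctrl, so that both libraries with the miR-9-specific antagomiR were the high ones. The class as a whole had a median of -0.24 in miR-9-LOF over Ctrl, and 0.11 at like level. In that pair 5 members were lower and 4 higher, beside 39.08% and 11.56% of all promoters. Oas1a, an oligoadenylate synthetase, had 96, 43, 75 and 123 ends and a ratio of 0.59 (0.03 to 1.16). Rsad2, the gene of viperin, was highest at 1.01 (0.14 to 1.89), from only 15 and 35 ends. Oasl1 was at 0.52 (0.07 to 0.97) and the factor gene Irf1 at 0.53 (-0.02 to 1.08). Ddx58, an RNA sensor, was the lowest of the list at -0.76 (-1.08 to -0.44), with 397 ends in Ctrl, 210 in TGFB1, 143 in the TGFB1+miR-9-LOF library and 167 in miR-9-LOF. Of the chemokines, Ccl11 was the higher one (0.58, 0.09 to 1.08), with 77, 52, 90 and 50 ends, and Csf1 the lowest (-0.68, -1.03 to -0.32).

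**Figure D3:**
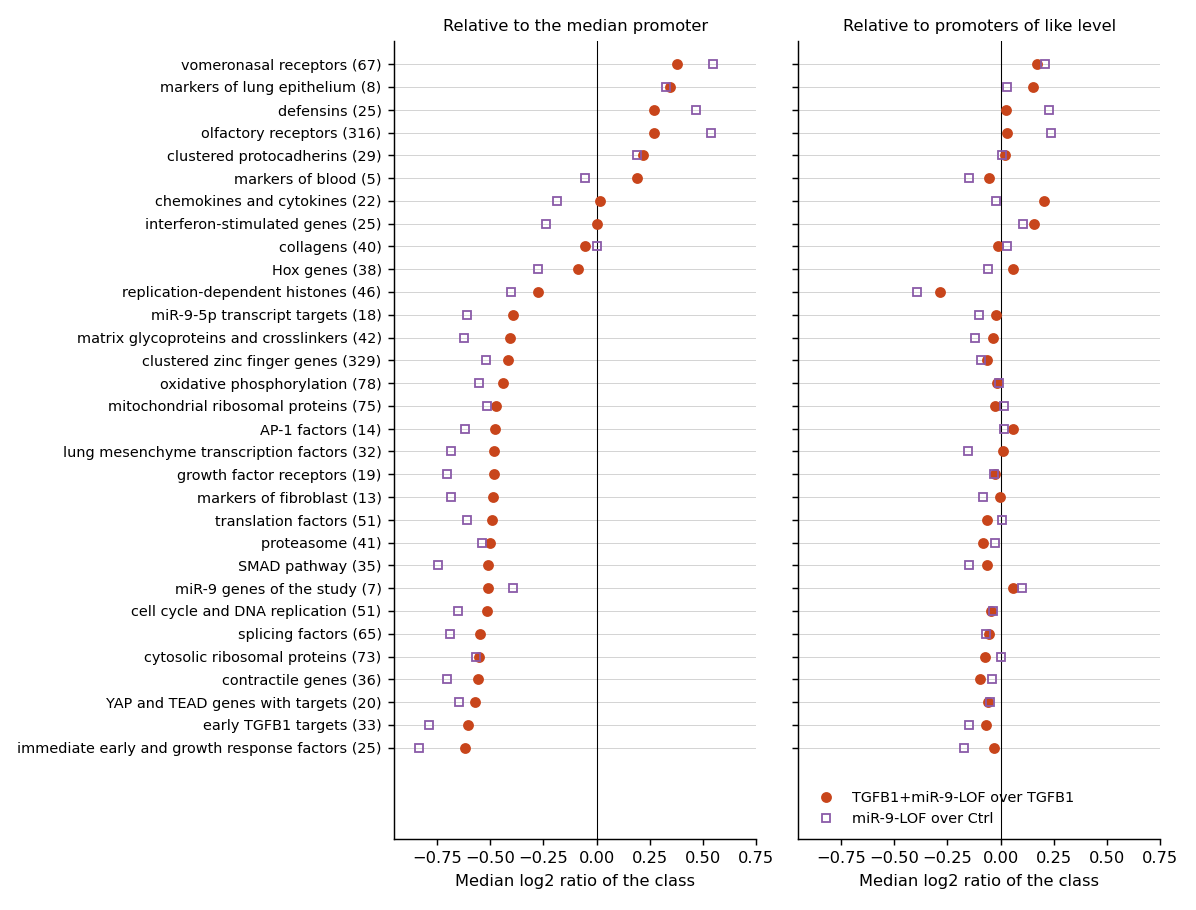
Median log2 ratio of each gene class with at least 5 measured promoters (number in brackets), relative to the median promoter (left) and to promoters of like level (right), with filled circles where TGFB1+miR-9-LOF is set over TGFB1 and open squares for miR-9-LOF over Ctrl. On the left the filled circles range from -0.62 to 0.38, while on the right most of them lie within 0.1 of 0, with replication-dependent histones at -0.28 and chemokines and cytokines at 0.20.

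Clustered genes of receptors, defensins and protocadherins had medians above 0, though 73 of 316 olfactory receptors, 12 of 67 vomeronasal receptors and 9 of 29 protocadherins had ratios below 0. Olfactory receptors, the odorant receptors of the nose, had a median of 0.27, with 3 lower and 80 higher (25.32%) among the 316 measured of 1127, where 27.8% of all promoters were lower and 7.85% higher. Vomeronasal receptors had 0.38, with 1 lower and 24 higher (35.82%) among 67 of 325. Defensins had 0.27, with none lower and 7 higher (28%) among 25 of 64, and clustered protocadherins 0.22, with 2 lower and 4 higher (13.79%) among 29 of 56. Their promoters had median levels of 0.46 to 0.57 times the median promoter, and at like level the medians were 0.03, 0.17, 0.02 and 0.02. In the lowest decile of all promoters (levels of 0.264 to 0.485) 494 of 1702 were higher and 61 lower. In the next decile (0.485 to 0.630) 334 of 1702 were higher and 66 lower, so many higher calls were found at such levels in general. Only members with enough ends were measured, and with no minimum beyond 1 end in each library the median of olfactory receptors was 0.34 and that of defensins 0.30. The lowest and highest members were Olfr1335 (-1.06) and Olfr1377 (1.25), Vmn2r24 (-0.52) and Vmn1r198 (1.34), Defb22 (-0.49) and Defb37 (1.29), and Pcdhgc3 (-0.86) and Pcdhb1 (0.68). Pcdhgc3 had 317 ends in TGFB1 and 202 in the TGFB1+miR-9-LOF library, many more than other protocadherins. Clustered zinc finger genes had a median below 0: 124 of 329 measured of 413 were lower (37.69%) and 8 higher, with a median of -0.41, from Zfp281 at -0.95 (-1.38 to -0.52) to Zfp536 at 0.86 (0.20 to 1.52).

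The labelled cell type was checked against markers. The 13 fibroblast markers had a median level of 2.75 times the median promoter in TGFB1 and 1.97 in the TGFB1+miR-9-LOF library. The 8 markers of lung epithelium had 0.79 and 0.94, those of endothelium (4 of 5 measured) 0.57 and 0.74, and those of blood (5 of 6 measured) 0.63 and 0.85. Of the 13 fibroblast markers 6 were enriched, and none of the markers of other lineages was. Over all promoters 27.8% were lower and 7.85% higher. At like level the medians were -0.005 for fibroblast, 0.15 for epithelial, 0.30 for endothelial and -0.06 for blood markers. Of the fibroblast markers 6 were lower (46.15%) and none higher, from Vim at -0.79 (-1.04 to -0.54) to Thy1 at 0.43 (-0.07 to 0.93). Epithelial markers ranged from Krt18 (-0.02) to Cdh1 (0.56, -0.03 to 1.15), with 1 higher, endothelial ones from Pecam1 (-0.05) to Cdh5 and Tek (both 0.79), with 2 higher, and blood markers from Cd68 (-0.11) to Spi1 (0.64), with 2 higher. The ends at Cdh1 were 51 in Ctrl, 38 in TGFB1, 65 in the TGFB1+miR-9-LOF library and 48 in miR-9-LOF.

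Genes that the study names around miR-9 had a median near that of promoters of their level, with Lzts2 above it. Of the 7, 4 were lower (57.14%, beside 27.8% of all and 66.15% of enriched promoters) and none higher, with a median of -0.51, and relative to promoters of like level the median was 0.06. Ep300, the gene of a histone acetyltransferase and coactivator, had 664 ends in Ctrl, 320 in TGFB1, 242 in the TGFB1+miR-9-LOF library and 323 in miR-9-LOF, and a ratio of -0.61 (-0.86 to -0.36). Zdhhc5, a palmitoyltransferase, had 213, 121, 96 and 132 ends and a ratio of -0.54 (-0.94 to -0.15). Ncl, the gene of nucleolin, had 713, 344, 279 and 383 ends and a ratio of -0.51 (-0.75 to -0.28), or 0.08 at like level. In all 3 the miR-9-LOF libraries lay below their partners. The chromatin remodeller genes Chd4 and Smarca5 were at -0.53 (-0.82 to -0.24) and -0.33 (-0.70 to 0.03). The study names their proteins as binding miR-9, and not their promoters as its targets, and Chd4 is among the 4 lower of the 7. Lzts2, a tumour suppressor gene, was at -0.05 (-0.41 to 0.32), with 118 ends in TGFB1 and 132 in the TGFB1+miR-9-LOF library, and in a window of 1 kb its ratio was 0.54. At like level it was 0.37 (0.01 to 0.74). The windows of Lzts2 and Zdhhc5 had 1.04 and 1.57 times the density of their flanks and were not enriched. The RefSeq start of Lzts2 lies 762 bp and that of Ep300 863 bp from the annotated one, and at those starts the ratios were -0.17 and -0.69. At its RefSeq start Lzts2 had 396 ends in Ctrl, 192 in TGFB1, 198 in the TGFB1+miR-9-LOF library and 229 in miR-9-LOF, more than at the annotated one in each library. The histone deacetylase gene Hdac7 was at 0.23 (-0.42 to 0.88), from 34 and 46 ends, and its window had 0.53 times the level of the median promoter in TGFB1, so that it holds no peak. Prap1, the negative control of the study for miR-9 enrichment at promoters, had 54, 31, 59 and 40 ends and a ratio of 0.72 (0.09 to 1.35). Its level was below the median promoter in both libraries compared.

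A list of 20 genes known as targets of miR-9-5p in transcripts, of which 18 were measured, had a median of -0.39 with 7 lower (38.89%, beside 27.8% of all promoters) and 1 higher (5.56%, beside 7.85%). It ranged from Elavl1 (-0.87, -1.10 to -0.63), which encodes an RNA-binding protein, to Cdh1. At like level the median was -0.02, with none lower and none higher.

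**Figure D4:**
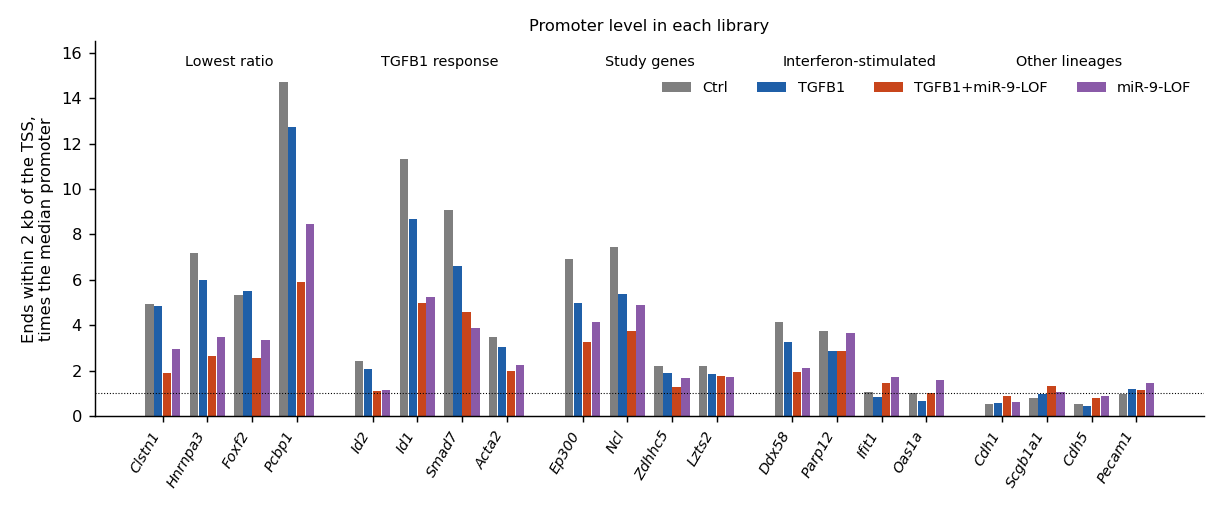
Ends within 2 kb of the TSS, in times the median promoter (vertical axis, from 0; the dotted line is the median promoter), for 20 promoters in the Ctrl, TGFB1, TGFB1+miR-9-LOF and then miR-9-LOF libraries, 1 bar per library. Pcbp1 goes from 12.8 in TGFB1 to 5.89 in TGFB1+miR-9-LOF and Clstn1 from 4.86 to 1.91, while Parp12 stays at 2.88 and Ifit1 is higher with the miR-9-specific antagomiR.

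The promoters furthest apart between the libraries were listed among the 3795 enriched ones with at least 200 ends summed over both. They were chosen by the ratio itself, and their values are a description. The lowest was Clstn1, the gene of a calcium-binding membrane protein, with 472 ends in Ctrl, 311 in TGFB1, 141 in the TGFB1+miR-9-LOF library and 230 in miR-9-LOF. Its ratio was -1.35 (-1.67 to -1.03), and -0.83 at like level. Hnrnpa3, a splicing protein, followed with 689, 384, 196 and 271 ends and a ratio of -1.18 (-1.44 to -0.92). Nuf2, a kinetochore protein, had 219, 138, 73 and 110 ends (-1.13), and Ireb2, which senses iron, 412, 238, 127 and 176 (-1.12). In each of these the TGFB1+miR-9-LOF library was the lowest of the 4. Foxf2 (-1.11) and Pcbp1 (-1.11), the gene of a poly(C)-binding protein with 1410, 816, 436 and 659 ends, completed the list. In the pair without TGFB1 these 6 promoters ranged from -1.05 to -0.67, with a median of -0.77, beside -0.73 for all enriched promoters. At like level, Slc12a2 (-0.73), a chloride transporter gene, and Tmem67 (-0.70), whose window overlaps that of Rbm12b2, were also among the lowest 6.

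The highest ratios of the 3795 were partly at promoters that reads reach with low mapping quality. Gm10800 had 653 ends in Ctrl, 378 in TGFB1, 742 in the TGFB1+miR-9-LOF library and 1135 in miR-9-LOF (0.76, 0.58 to 0.94). Gm21738 was at 0.71 (0.30 to 1.12), Gm10801 at 0.63 (0.37 to 0.90) and 4931408C20Rik at 0.26 (0.03 to 0.49). Before the filter, 40.2%, 48.2%, 49.3% and 14.2% of the ends in these windows in TGFB1 were below a mapping quality of 30, against 4.91% of all ends. The part of repeated sequence in these 4 values was not tested. The other promoters listed were Pqlc3 at 0.14 (-0.27 to 0.55), where 11.3% of the ends were below that quality, and Dclk2, a kinase gene, at 0.06 (-0.31 to 0.43). At like level Tmem176b (0.55), whose window overlaps that of Tmem176a, and Parp12 (0.51, 0.22 to 0.81) were also among the highest 6. Parp12, an ADP-ribosyltransferase gene of the antiviral response, had 359 ends in Ctrl, 184 in TGFB1, 213 in the TGFB1+miR-9-LOF library and 284 in miR-9-LOF, where only 3.09% of the ends in TGFB1 had low mapping quality. Its ratio was 0.00 (-0.29 to 0.30), whereas 99.45% of enriched promoters had a ratio below 0.

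The same measure in Ctrl and miR-9-LOF, which share no library with the pair compared but entered the mean level and the choice of enriched promoters, had the same sign of the median in all classes but collagens, chemokines and cytokines, blood markers and interferon-stimulated genes, whose median in the pair compared was 0.00. Over the 17018 promoters the log2 ratios of both pairs had a Pearson r of 0.70 and a Spearman rho of 0.73, which includes the shared dependence on level. Relative to promoters of like level r was 0.36 and rho 0.33, and within the enriched promoters r was 0.31 and rho 0.23 by the same measure. These points share windows, base composition and mappability, and the correlations are descriptions across promoters. The median over enriched promoters was -0.73 in the pair without TGFB1 and -0.57 in the pair with it.

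Beside the promoters, contacts were spread over longer distances in TGFB1+miR-9-LOF than in TGFB1. Pairs between chromosomes made up 14.5% in TGFB1 and 18.5% in the TGFB1+miR-9-LOF library, with 16.4% in Ctrl and 17.5% in miR-9-LOF. Of the pairs on 1 chromosome, 26.3% lay under 20 kb in TGFB1 and 22.6% in the TGFB1+miR-9-LOF library. Of those at least 20 kb apart, 28.9% spanned over 2 Mb in TGFB1 and 31.7% in the TGFB1+miR-9-LOF library (29.5% in Ctrl, 32.3% in miR-9-LOF). The direction was the same on 19 of 19 autosomes, but these come from the same libraries and are not replicates. The share over 2 Mb was higher by 2.43 to 3.40 percentage points and the share between chromosomes by 5.61 to 6.28 points, counting the pairs of each chromosome, and the share under 20 kb was lower on all 19. In miR-9-LOF against Ctrl the share over 2 Mb was higher on 19 of 19 as well, by 2.0 to 3.2 points. The slope of the log10 density on log10 distance from 100 kb to 2 Mb was -1.31 in TGFB1 and -1.27 in the TGFB1+miR-9-LOF library, with -1.33 in Ctrl and -1.26 in miR-9-LOF.

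The difference was largest at the shortest and the longest distances. As the log2 ratio of the share of pairs on 1 chromosome, TGFB1+miR-9-LOF over TGFB1 was -0.64 below 1 kb, -0.45 from 1 to 2 kb and -0.29 from 2 to 5 kb. It lay between -0.02 and 0.00 from 10 to 500 kb, and reached 0.16 from 2 to 5 Mb and 0.23 from 20 to 50 Mb. Pairs within 1 kb had the same strand at both ends in 45.7% of cases in TGFB1 and 46.0% in the TGFB1+miR-9-LOF library, so that the balance of strands in them was alike. Pairs with an end at a promoter differed more below 2 kb and above 500 kb, and not more from 2 to 10 kb. Below 1 kb their ratio was -0.92, against -0.51 for pairs without a promoter end, from 1 to 2 Mb it was 0.17 against 0.08, and from 20 to 50 Mb it was 0.30 against 0.21. From 2 to 5 kb it was -0.28 against -0.29, and from 5 to 10 kb -0.07 against -0.12. The share of pairs between chromosomes differed by 5.01 percentage points among pairs with a promoter end (15.1% and 20.1%) and by 3.88 among those without (14.3% and 18.2%). The distance decay thus differed also where neither end lay within 2 kb of an annotated coding start. Such pairs can still include promoters with other starts and other regions with H3K4me3. Whether the lower share of promoter ends has a part in it was not tested beyond this split.

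**Figure D5:**
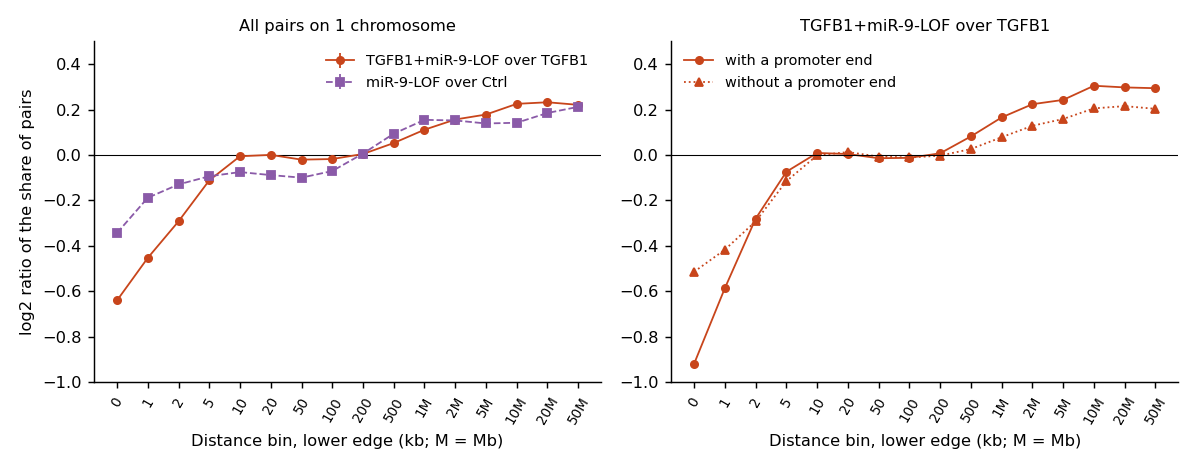
log2 ratio of the share of pairs on 1 chromosome (vertical axis) by distance bin, named by its lower edge in kb or Mb (M), for all pairs in both pairs of libraries (left) and for the pair with TGFB1 by whether an end lay at a promoter (right). Counting intervals are smaller than the symbols. The line of TGFB1+miR-9-LOF over TGFB1 starts at -0.64 below 1 kb, runs near 0 from 10 to 500 kb and ends above 0.2.

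Compartments, the division of chromosomes into gene-rich A and gene-poor B regions that prefer their own kind, had nearly the same pattern in both libraries. The first eigenvector of the contact matrix, in 4707 bins of 500 kb and with 7996391 pairs from each library, had a correlation of 0.97 between TGFB1+miR-9-LOF and TGFB1. Over all pairs of the 4 libraries the correlations were 0.970 to 0.975. The sign differed in 234 bins (4.97%), of which 102 went from A to B and 132 from B to A. This balance turned to 202 against 119 without promoter pairs and to 316 against 48 without balancing. None of these bins had an absolute value above 0.5 in both libraries, but 71 of 321 did when pairs with a promoter end were left out and 87 of 364 when the matrix was not balanced. In the 234 bins the median absolute value in TGFB1 was 0.112, beside 0.964 for all bins. Chromosome 13 stood apart, with a correlation of 0.69 and a compartment strength of 1.38 in TGFB1, where the next lowest was 4.38, and without it the correlation was 0.98. This was not particular to the pair compared. The strength of chromosome 13 was 1.39 in each of the other libraries, and its correlation between miR-9-LOF and Ctrl was 0.71. Compartment strength, the contacts within A and within B over those between them in the outer quintiles of the eigenvector, had a median over autosomes of 5.53 in TGFB1 and 5.40 in the TGFB1+miR-9-LOF library. The ratio per chromosome had a median of 0.961 (0.874 to 1.08) and was below 1 on 13 of 19 autosomes. In miR-9-LOF over Ctrl it was 1.01.

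Ends were divided differently between the compartments. A bins held 67.5% of the ends in TGFB1 and 64.9% in the TGFB1+miR-9-LOF library, with 69.1% in Ctrl and 63.6% in miR-9-LOF. Away from promoters the shares were 65.2% in TGFB1 and 63.2% in the TGFB1+miR-9-LOF library. Part of the difference was thus present outside promoter windows. Between chromosomes, pairs that joined A with B were 0.806 times their expected number in TGFB1 and 0.829 times in TGFB1+miR-9-LOF, with 0.823 in Ctrl and 0.803 in miR-9-LOF. Enriched promoters had a median of -0.58 for the 3286 in A, of which 67.95% were lower, and of -0.54 for the 688 in B, of which 57.56% were lower. Promoters that were not enriched had a median of -0.12 in A and 0.13 in B, at median levels of 1.13 and 0.62, and at like level these medians were 0.02 and 0.00. Early TGFB1 targets lay in A for 32 of 33, whereas 75 of 316 measured olfactory receptors did. Of all measured promoters 13749 lay in A and 3265 in B.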

How the data were processed

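Chromatin of MLg cells was assayed by H3K4me3 HiChIP-seq in 4 libraries, 1 per condition. The authors mapped and filtered the read pairs with HiC-Pro on mm10, as the submitters' processing notes name them, and deposited lists of valid pairs with the position of each end (in base pairs along its chromosome) and its mapping quality score. The gene starts came from GENCODE M21 on GRCm38, the same assembly as mm10.

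Autosomal pairs were kept where both ends mapped with a quality of 30 or more. Ends within 2 kb of the start of each coding gene were counted, divided by the median over the 20780 promoters of the library, and compared as log2 ratios of TGFB1+miR-9-LOF over TGFB1 where both libraries summed to at least 50 ends. The 95% intervals of the log2 ratios take the pairs as the units counted. The Wilson interval of the promoter share counts the ends of a pair separately. Intervals of the excess over the flanks take flank ends, and ends shared by overlapping windows, as independent. All cover counting error only, since pairs are reads without molecular identifiers. With 1 library per condition no test was made. A log2 ratio of 0.5 in either direction counted as lower or higher.

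Distance decay was the share of pairs on 1 chromosome by distance. Compartments were the first eigenvector of the balanced, distance-corrected contact matrix in bins of 500 kb, signed by the density of gene starts, after each library was thinned to 7996391 pairs. On 1 chromosome of each library the second eigenvector was used.

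Named promoters were the 6 lowest and the 6 highest by ratio, and by ratio at like level, among enriched promoters with at least 200 ends (promoters with overlapping windows counted once), the genes that the study names, the cell type markers, and the lowest and highest member of each class with a few further members chosen for their known role. Some of these members were picked after their values were seen. The comparison, the gene lists and these rules were chosen with earlier results of these data known. Python 3.11.15 with numpy 2.4.6, pandas 2.3.3, scipy 1.17.1 and matplotlib 3.10.9 was used, and the calculations were tested on simulated data. Alternatives were other windows, filters, references, bins and sets of pairs, and the RefSeq start in place of the annotated one, which was chosen after the data were seen. Chromosome X entered only as an alternative. Values of a few class members are not reported here, though the class counts and medians include them.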

Additional observations from a re-analysis of the deposited data

Results flagged for a closer look

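Some values had opposite signs in the pair of libraries with TGFB1 (TGFB1+miR-9-LOF over TGFB1) and in the pair without it (miR-9-LOF over Ctrl). Each library is the only one of its condition, so none of these differences was tested. The median log2 ratio of collagens was -0.0539 with TGFB1 and 0.00151 without, that of chemokines and cytokines 0.018 and -0.186, and that of blood markers 0.189 and -0.0559. Among single promoters, Tmem176b had 0.0411 with TGFB1 and -0.796 without, Pqlc3 0.137 and -0.437, Dclk2 0.06 and -0.24, and Parp12 0.00169 and -0.0385. Prap1 had 0.719 and -0.133, Hdac7 0.227 and -0.0484, and Gm21738, a promoter with many ends of low mapping quality, 0.71 and -0.036. For Parp12, Dclk2 and Hdac7 the counting intervals of both values include 0. For Tmem176b and Pqlc3 the interval with TGFB1 includes 0, and for Prap1 and Gm21738 the interval without TGFB1 does. The median ratio of compartment strength was 0.961 with TGFB1, which is weaker, and 1.01 without.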

How the results depend on the processing

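No paired analysis was possible because each condition had 1 library. The median log2 ratio of enriched promoters, -0.57 as reported, stayed below 0 under every alternative run. It was -0.593 with no filter on mapping quality, -0.608 in windows of 1 kb and -0.439 in windows of 5 kb, -0.532 with only pairs on 1 chromosome at least 20 kb apart, -0.539 without pairs under 1 kb, and -0.525 with each pair of restriction fragments counted once. It was -0.578 with at least 200 ends, -0.731 per 1000000 ends, -0.279 relative to promoters of like GC content, -0.683 relative to the own flanks, -0.566 at equal depth, -0.649 without overlapping windows and -0.035 relative to promoters of like level. Against 4729 lower promoters, 2048 were lower in windows of 5 kb, 7350 per 1000000 ends, 921 at like level, 856 at like GC content and 51 with a log2 ratio of 1 as the limit. Against 1336 higher ones, there were 768 in windows of 1 kb, 2503 with no minimum beyond 1 end, 19 with at least 200 ends, 633 per 1000000 ends, 826 at like level, 3080 at like GC content, 814 against the own flanks, 865 without overlaps and 108 with the limit of 1. At like level the sign turned for 5 of 32 class medians, those of the genes named by the study (0.058), AP-1 factors (0.06), lung mesenchyme factors (0.01), Hox genes (0.06) and blood markers (-0.06), and for Ncl (0.078), Lzts2 (0.37) and Smarca5 (0.11). At the RefSeq start, chosen after the data were seen, 3736 were lower and 920 higher of 12808.

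The share of pairs between chromosomes was higher in TGFB1+miR-9-LOF than in TGFB1 by 4.00 percentage points, by 4.18 with chromosome X, 3.93 with fragment pairs counted once, 3.88 without and 5.01 with a promoter end. The share over 2 Mb was higher by 2.84 points, or by 2.59 without and 3.7 with a promoter end. The difference in slope was 0.039. The correlation of compartments, 0.973, was 0.962 in bins of 250 kb, 0.984 in bins of 1 Mb, 0.917 without balancing and 0.886 without promoter pairs. The ratio of strength, 0.961, was 0.99 in bins of 250 kb, 0.978 with no mapping quality filter, 0.936 without balancing, 0.98 without promoter pairs and 0.979 at full depth. Bins that differed in sign, 234 as reported, were 478, 106 and 364 in bins of 250 kb, of 1 Mb and without balancing, and 321 without promoter pairs. The cause of these shifts was not tested. Depth limits single promoters near the median level, with 64 and 74 ends, to wide intervals.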

Other observations

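Promoters whose RefSeq start lies over 2 kb from the annotated start numbered 1045 of 12987 (8.05%), and for these the window at the annotated start can miss the peak.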
